A study of Mus musculus with 14 samples.

Results

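The liver library is 1 of 14 small RNA libraries, each made from pooled total RNA of 1 tissue of C57BL/6J mice, a common inbred strain. It was compared with the other 13, which came from the nervous system (brain and cerebellum), the gut (oesophagus, stomach, small intestine and colon) and from pancreas, kidney, spleen, lung, heart, ovary and uterus of the same strain. The labels give no treatment, age or sex. They name 5 mice for the harvest but 10 for the pooled RNA, a discrepancy that could not be resolved. For all 1046 names of the deposited table, the liver value was set against the median and the maximum of the other libraries, and the names described were taken by rules of size, by abundance and from lists. With 1 library per tissue there was no replicate check, no test between tissues and no p-value. Intervals are 95% and cover counting error only.

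miRNAs are short RNAs that an Argonaute protein carries to target mRNAs, where pairing of the seed, bases 2 to 8 of the miRNA, guides repression. Hepatocytes make up most of the liver mass and are known for one dominant miRNA, miR-122, which acts on cholesterol and lipid metabolism. Whole liver also holds sinusoidal endothelium, Kupffer cells, stellate cells, bile duct epithelium and blood. A lower level in bulk RNA can come from fewer cells of a type or from less RNA per cell, and these cannot be told apart here.

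The sequences below are those on which the comparison of liver with other tissues turns, from RefSeq on GRCm38.p6, written 5′ to 3′ with the seed in capitals. The first set shows miR-192, high in liver, beside miR-215, which has the same seed, and miR-194, whose gene copies lie next to both.
miR-192: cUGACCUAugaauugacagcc
miR-215: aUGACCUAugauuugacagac
miR-194: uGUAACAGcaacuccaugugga
The second set shows miR-101b, which stood above every other library in liver, beside its relative miR-101a, which did not.
miR-101b: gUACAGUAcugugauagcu
miR-101a: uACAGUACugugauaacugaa
The third set shows miR-10a and miR-10b, which lay far apart in liver.
miR-10a: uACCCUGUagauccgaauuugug
miR-10b: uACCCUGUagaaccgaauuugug
The fourth set shows miR-31 and miR-203, the other names that passed the rule for a higher liver level, and miR-181a and miR-23a, both among the lowest.
miR-31: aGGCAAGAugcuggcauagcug
miR-203: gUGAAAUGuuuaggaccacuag
miR-181a: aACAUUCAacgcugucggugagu
miR-23a: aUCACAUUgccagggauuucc

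Counted from the 5′ end, miR-192 and miR-215 differ at 3 bases (C1A, A12U and C20A, miR-192 first), all outside the seed. miR-10a and miR-10b differ at 1 base (U12A, miR-10a first). miR-101a and miR-101b share a run of 15 bases that starts at base 1 of miR-101a and at base 2 of miR-101b, so their seeds overlap but are shifted by 1 base. The mature miR-192 lies at chr19:6264857-6264877, plus strand, 115 bases from the Mir194-2 copy of miR-194 (chr19:6264658-6264679, plus strand). The mature miR-215 lies at chr1:185313610-185313630, plus strand, 195 bases from the Mir194-1 copy. miR-101b lies in an intron of Rcl1 (chr19:29135338-29135356, plus strand), and miR-101a in an exon of a long non-coding RNA, E130102H24Rik (chr4:101346957-101346977, minus strand). For miR-10a (chr11:96317186-96317208, plus strand) no host gene was found in the annotation, and miR-10b lies in introns of Hoxd3 and Hoxd4 (chr2:74726074-74726096, plus strand). How the authors counted reads that match several near-identical miRNAs is not given in the sources used here, so such pairs may share reads.

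All 14 libraries hold miR-143, a miRNA of smooth muscle and other mesenchymal cells, at very unequal shares. It took 6.14% of the liver reads and between 4.01% in pancreas and 98.7% in the library labelled colon elsewhere, with a median of 51.8%. Values are therefore given as RPM, the read count scaled to a library total of 1000000 reads with miR-143 left out of the total, and miR-143 itself can exceed the whole remaining total on this scale. The liver library held 6344776 reads, 5955158 of them not miR-143, against 86545 (colon) to 6502821 (kidney) in the other 13. Where no read was counted, up to 3 reads remain possible, equal to 0.504 RPM in liver and 0.461 to 34.7 RPM elsewhere. For colon and uterus only the label is used as a name, since the intestinal miR-192 and miR-215 had 1514 and 347 RPM under the colon label and 60551 and 118373 RPM under the uterus label. Their values, and those of the thinly read ovary and pancreas, were also left out in turn.

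Liver had one of the least varied profiles of the series. Of the 805 names with a read in any library, 434 had one in liver, and 371 had reads elsewhere but none in liver. At 10 RPM or more liver held 151 names, against 112 in pancreas to 328 in brain (median 241), so only 1 other library held fewer. The 10 most abundant names made up 91.3% of the liver reads other than miR-143, 39 names made up 99%, and the other libraries needed 24 to 131 names (median 90) for that share. On the same total, miR-122 alone was 46.6%. miR-378, encoded in the metabolic coactivator gene Ppargc1b, followed with 14.99%, then let-7f with 7.15%, miR-192 with 5.15%, let-7c with 4.89%, let-7a with 4.33% and miR-21 with 2.94%. The count of miR-122 was 3.11 times that of miR-378 and 6.52 times that of let-7f.

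Leaving miR-122 out shows how far its share moves all other liver values. With miR-122 also left out of every total, all liver values rise 1.87-fold and the values elsewhere hardly move. Names were considered where they reached 100 RPM in liver or in the median of the other libraries. Of the 110 considered, 18 stood above that median in liver and 92 below, with a median log2 difference of −1.23, counting 1 RPM added to each value. Without miR-122 in the total, 112 were considered, 42 stood above and 70 below, and the median was −0.32. Over 6 scalings it ran from −1.23 to 1.03 (TMM factors), so a fold of a single name is to be read against this shift. The direction of a small fold can change with the scaling.

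A name was called higher in liver at 100 RPM or more and at least 4-fold above the median of the other libraries. This held for 6 of the 110 names considered (5.45%): miR-122, miR-192, miR-194, miR-101b, miR-31 and miR-203. Lower calls needed a median of at least 100 RPM and a liver level at least 4-fold below it, and 36 names met this (32.7%). Without miR-122 in the total the split was 10 higher (8.93%) to 22 lower (19.6%). It was 11 to 13 with miR-143 left in the totals, 18 to 14 with median-of-ratios factors, 18 to 8 with TMM factors and 9 to 51 without the 5 most abundant names of each library. The same 6 higher names were called under all 6 of these scalings, and 8 of the 36 lower names were: miR-1, miR-10b, miR-141, miR-145, miR-181a, miR-200b, miR-200c and miR-23a.

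**Figure D1:**
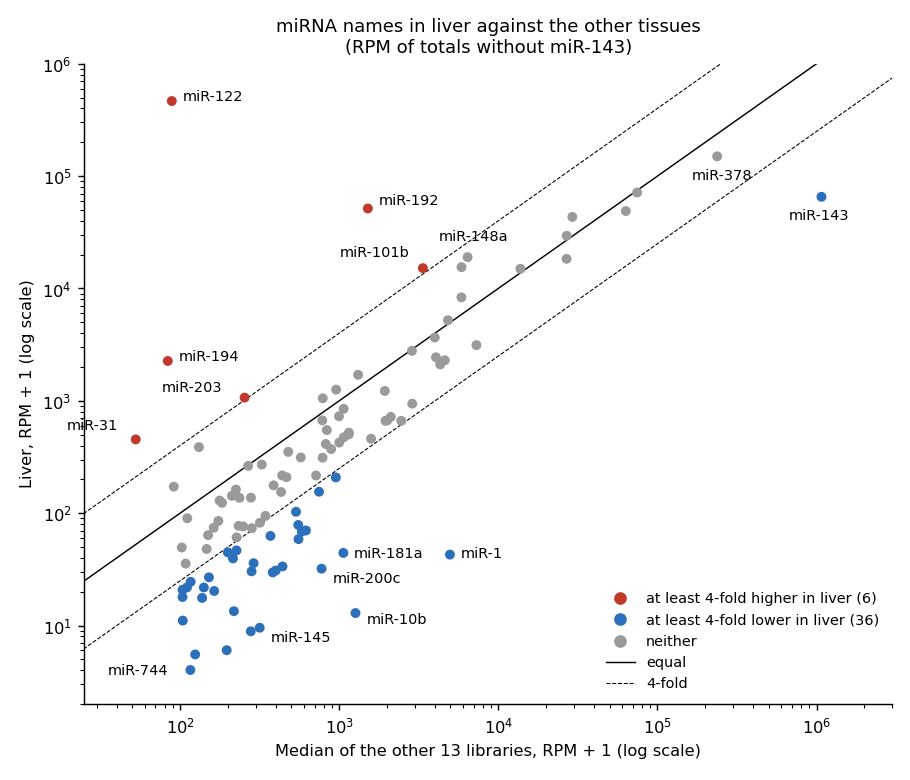
Each point is 1 of the 110 miRNA names considered; the x axis is the median of the other 13 libraries and the y axis the liver library, both as RPM + 1 on a log scale, with miR-143 left out of the totals. The solid line marks equal values and the dashed lines a 4-fold difference; 6 names lie above the upper line, miR-122 farthest, and 36 below the lower one.

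miR-122 is transcribed in hepatocytes and is the defining miRNA of that cell type. Its level was 466024 RPM (465476 to 466573) in liver, from 2775249 reads. In the other libraries it ran from 10.0 RPM in pancreas to 1340.3 RPM in the library labelled colon, with a median of 87.7 RPM, and kidney, with 573 RPM from 3727 reads, came second to the colon label, whose value rests on 116 reads. Liver was 5312-fold above the median (4836 to 5847) and 348-fold above the library labelled colon (289.9 to 421), so no other library came near it. Where miR-122 led the liver library, its best rank elsewhere was 43 and its median rank 125. The opposite arm of its hairpin, miR-122*, had 72 reads in liver, or 12.1 RPM (9.46 to 15.2), and none in any other library. A count of 0 allows up to 0.461 RPM in kidney but up to 34.7 RPM in the library labelled colon, which is too thin to be set below liver for this arm.

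miR-192 and miR-194 are transcribed together and are known from liver, kidney and gut epithelium, where hepatocyte nuclear factors drive them. miR-192 reached 51509.6 RPM (51328 to 51692) in liver. Elsewhere it ran from 328 RPM in ovary to 71090.3 RPM in small intestine. Its median of 1514 RPM is the value of the thinly read library labelled colon, from 131 reads. Liver was 34.0-fold above the median (95% interval 28.7 to 40.7) and above 11 of the 13 libraries. Only small intestine and the library labelled uterus (60551 RPM) were higher, and kidney was next below (30974 RPM). The order of these leaders depends on the total used: liver lay at 0.725 of the small intestine level here and above it under 4 of the 6 scalings. miR-194 reached 2263 RPM (2225 to 2302) in liver and ran elsewhere from 8.37 RPM in pancreas to 21996 RPM in small intestine, with a median of 82.7 RPM. It stood 27.4-fold above the median (95% interval 24.5 to 30.6), again above 11 libraries, and close to kidney at 2174 RPM. The star arm of the copy beside miR-192, miR-194-2*, had 74.9 RPM against a median of 6.06 RPM, and miR-192* had 8.40 RPM from 50 reads, so both arms of these hairpins were on the high side in liver.

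miR-215, the partner of miR-194 at the other locus, did not follow. It had 412 RPM (396 to 428) in liver and ran from 35.2 RPM in pancreas to 365682 RPM in small intestine, with a median of 823 RPM, which liver exceeded under 2 of the 6 scalings. The ratio of miR-192 to miR-215 counts, which no scaling can alter, was 125 in liver (95% interval 120.2 to 130.2). It ran from 0.0878 in oesophagus to 166 in kidney elsewhere, with a median of 1.32 and 14.3 in pancreas as the next value. Liver and kidney thus stood together and apart from small intestine, oesophagus, lung, heart and the library labelled uterus, in which miR-215 outnumbered miR-192. The seed UGACCUA that both share summed to 51921 RPM in liver, 25.8-fold above the median of 2016 RPM, nearly all of it from miR-192.

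miR-101b and miR-101a are known repressors of the histone methyltransferase Ezh2. miR-101b reached 15165 RPM (15066 to 15264) in liver, while the others ran from 319.9 RPM in pancreas to 4578 RPM in lung, with a median of 3358 RPM. Liver was 4.52-fold above the median (95% interval 4.45 to 4.58) and 3.31-fold above lung (3.25 to 3.38), above all 13 libraries. miR-101b and miR-122 were the only names considered that were highest in liver, and at least 2-fold above every other library, under all 6 scalings (2 of 110 names, or 1.82%, for either rule; without miR-122 in the total 3 of 112, or 2.68%, and 2 of 112, or 1.79%). miR-101a went the other way on this scale: liver had 3129 RPM (3085 to 3175), 2.33-fold below the median (95% interval 2.28 to 2.38) of 7285 RPM and below 11 of 13 libraries, although it lay above the median under 2 of the 6 scalings. The ratio of miR-101b to miR-101a was 4.85 in liver (95% interval 4.77 to 4.92) and ran from 0.164 in cerebellum to 0.779 in small intestine elsewhere, with a median of 0.369. Liver was the single library in which miR-101b outnumbered miR-101a.

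miR-31 and miR-203 are best known from squamous and other epithelia. miR-31 had 453 RPM (436 to 470.1) in liver and ran from 4.62 RPM in cerebellum to 2103 RPM in stomach, with a median of 51.7 RPM, so liver was 8.76-fold above the median (95% interval 7.82 to 9.84) but below 3 libraries. miR-203 had 1067 RPM (1041 to 1094) in liver and ran from 10.3 RPM in ovary to 25352 RPM in oesophagus, with a median of 253 RPM, and liver was 4.21-fold above the median (95% interval 3.87 to 4.59). It sits just inside the 4-fold rule, and its call was lost when any 1 of brain, spleen, cerebellum, ovary, heart, colon or pancreas was left out. miR-205, the other squamous marker listed, had no liver read against 1171 RPM in oesophagus.

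Just outside the rule were miR-148a and miR-144*, each 2.96-fold above the median, and miR-30a, 2.64-fold above it. miR-148a, which acts on the hepatic LDL receptor, had 19001 RPM (18890.1 to 19112) in liver and ran from 317 RPM in cerebellum to 651758 RPM in pancreas, with a median of 6413 RPM. miR-144*, from the erythroid cluster with miR-451, had 387 RPM against a median of 130.4 RPM and a maximum of 5812 RPM in spleen. miR-30a had 15483 RPM (15383 to 15584) against 5869.8 RPM in the median library and 61446 RPM in lung. Without miR-122 in the total they stood 5.55-, 5.55- and 4.93-fold above the median, so all of them passed there, as did miR-194-2*.

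**Figure D2:**
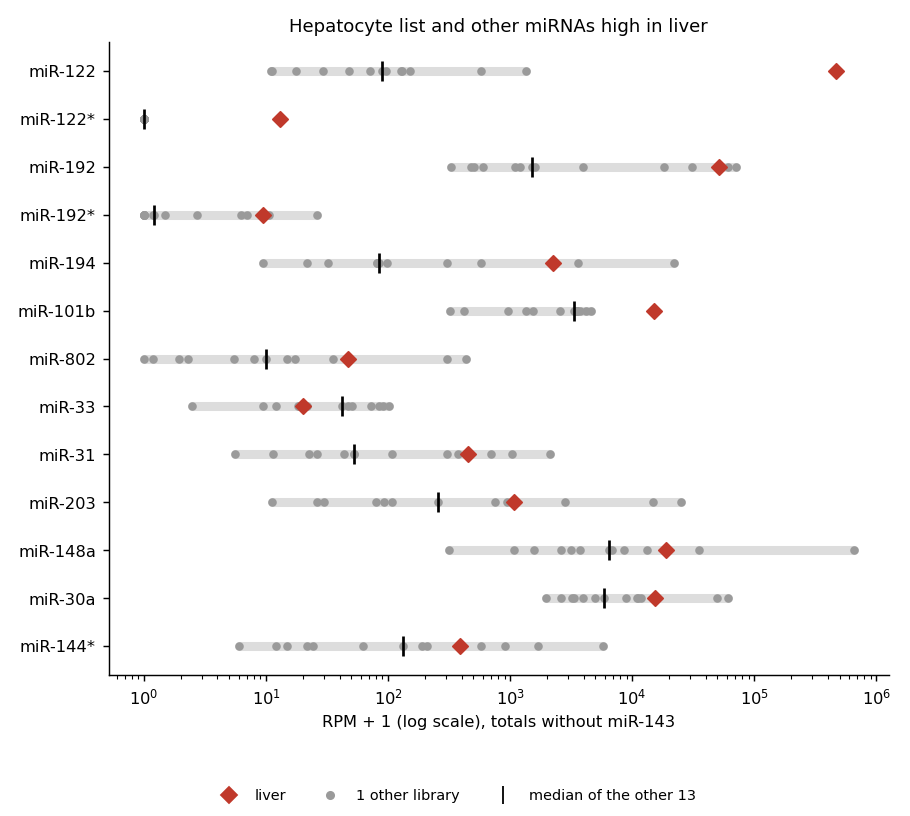
RPM + 1 on a log scale for the 8 members of the hepatocyte list (miR-122, miR-122*, miR-192, miR-192*, miR-194, miR-101b, miR-802 and miR-33) and for miR-31, miR-203, miR-148a, miR-30a and miR-144*; the red diamond is liver, grey points are the other 13 libraries, the bar spans their range and the black tick is their median. Liver stands apart from all other libraries for miR-122 and miR-101b. For miR-122* only liver had reads, but the library labelled colon is too thin to be set below liver. For the rest liver stands within the range of the other libraries.

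miRNAs that act on lipid and glucose metabolism mostly lay below their medians in liver on this scale, as did most names considered. Only 1 of the 11 listed, miR-148a, lay above, where 18 of the 110 names considered did. Without miR-122 in the total 6 of 11 lay above, against 42 of 112. miR-802, listed with the hepatocyte names, is known to impair hepatic glucose handling in obese mice. It had 46.2 RPM (40.9 to 52.0) in liver from 275 reads, against a median of 9.06 RPM. Small intestine (436 RPM) and pancreas (303 RPM) stood well above liver. miR-33, encoded in an intron of the sterol regulator Srebf2 and a repressor of the cholesterol exporter Abca1, had 19.1 RPM against a median of 41.2 RPM, which it exceeded under 3 of the 6 scalings. miR-378 had 149878 RPM and ran from 25026 RPM in brain to 495327 RPM in stomach, with a median of 237451 RPM, with 5 of the 13 libraries below liver, and liver lay above the median under 4 of the 6 scalings. Over the 11 matched members of the lipid and glucose list the median log2 difference was −0.66, above the −1.23 of all names considered. Of the 11, 5 were among the names considered and none was called in either direction. Of all names considered, 5.45% were called higher and 32.7% lower. Without miR-122 in the total the list median was 0.03 and 1 member, miR-148a, was called higher, against 8.93% of all names. None was called lower there, against 19.6%. The hepatocyte list of 8 had a median of 3.34 (4.18 without miR-122 in the total). Of the 8, 7 lay above the median library, where 18 of the 110 names considered did. Of the 8, 4 were among the names considered and all 4 were called higher, against 5.45% of all names considered. The hepatocyte list was chosen with earlier results of these data known, so its high place is a description only. Its members summed to 535048 RPM in liver and to 800.4 to 96191 RPM elsewhere, miR-122 making up most of the liver sum.

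The let-7 family, which marks differentiated cells, was abundant in liver at levels inside the range of other tissues. Its 9 names, all with the seed GAGGUAG, summed to 200919 RPM against a median of 251783 RPM, and the family's median log2 difference was −0.55. let-7a stood 1.48-fold above the median and let-7f lay at it (1.04-fold below). let-7i was the exception, with 943 RPM (918 to 968) in liver, below all 13 other libraries (1191 RPM in oesophagus upward), although it was the lowest under only 2 of the 6 scalings. miR-21, a widely expressed miRNA, had 29436 RPM in liver, 1.09-fold above its median. For miR-21, liver lay above the median under all 6 scalings and above every other library under 3 of them. The miR-30 family was near the median as well (−0.04), with miR-30a highest and miR-30b lowest relative to other tissues.

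Of the names low in liver, miR-1 differed most. miR-1 is the miRNA of heart and skeletal muscle, and it had 41.8 RPM (36.8 to 47.3) in liver, from 249 reads. Elsewhere it ran from 327 RPM in kidney to 405138 RPM in heart, with a median of 4967 RPM. Liver was 119-fold below the median (95% interval 105 to 135) and 7.83-fold below kidney, the next lowest. It was the only name lowest in liver under all 6 scalings, out of 8 (7.27%) on the scale used here and 2 of 112 (1.79%) without miR-122 in the total. The muscle miRNAs miR-133a and miR-133b had no liver read, which allows up to 0.504 RPM, against maxima of 1946 and 147 RPM in heart. miR-499 had 1 read. The 7 muscle names summed to 63.8 RPM in liver and to 357 to 418082 RPM elsewhere, the lowest sum of the 14 libraries.

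miR-10b, which lies among the Hoxd genes that pattern the body axis, had 11.9 RPM (9.31 to 15.0) in liver, from 71 reads. It ran elsewhere from 5.22 RPM in brain to 13711 RPM in kidney, with a median of 1266 RPM, and liver was 106-fold below the median (95% interval 84.0 to 136), above brain alone. miR-10a, from the Hoxb cluster, had 2441 RPM (2402 to 2481) and lay 1.66-fold below its median, although above it under 4 of the 6 scalings. On the scale used here the median library for miR-10a is the thinly read one labelled colon. The ratio of miR-10a to miR-10b was 205 in liver (95% interval 162 to 262) and ran elsewhere from 0.275 in ovary to 61.1 in lung, with a median of 2.50. All 13 libraries were below liver. miR-196a and miR-196b, also from Hox clusters, had 2 and 7 liver reads, against maxima of 2927 and 6681 RPM in kidney.

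The miR-181 family, known from lymphocytes and the nervous system, was low throughout. miR-181a had 43.3 RPM (38.2 to 48.9) in liver and ran from 33.5 RPM in pancreas to 3189 RPM in cerebellum, with a median of 1061 RPM, so liver was 24.5-fold below the median (95% interval 21.6 to 27.9) and above pancreas alone. miR-181b (5.04 RPM) lay 38.8-fold below its median, miR-181d (12.4 RPM) 17.5-fold and miR-181c (5.21 RPM) 12.7-fold. The median over the 4 was −4.30, and −3.43 without miR-122 in the total, the lowest of the 28 lists on both scales.

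Names made from shared transcripts differed inside liver. miR-23a, miR-27a and miR-24 come from one cluster, and miR-23b, miR-27b and a second copy of miR-24 from another. miR-24 had 3657 RPM (3609 to 3706) in liver, close to its median of 3987 RPM. miR-23a had 29.9 RPM, 13.3-fold below the median (95% interval 11.4 to 15.6) with pancreas (26 reads) the next lowest and within counting error, and miR-23b had 67.8 RPM, 8.57-fold below its median. The count ratio of miR-24 to miR-23a was 122.4 in liver (95% interval 106 to 142.6) and 3.11 to 47.4 elsewhere (median 10.0). The ratio of miR-27b to miR-23b was 10.7 in liver (95% interval 9.68 to 11.9), against 0.838 to 8.51. Liver lay above all 13 libraries in both ratios. The ratio of miR-192 to miR-194, 22.8 in liver, was inside the range of 3.23 to 60.2 elsewhere.

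**Figure D3:**
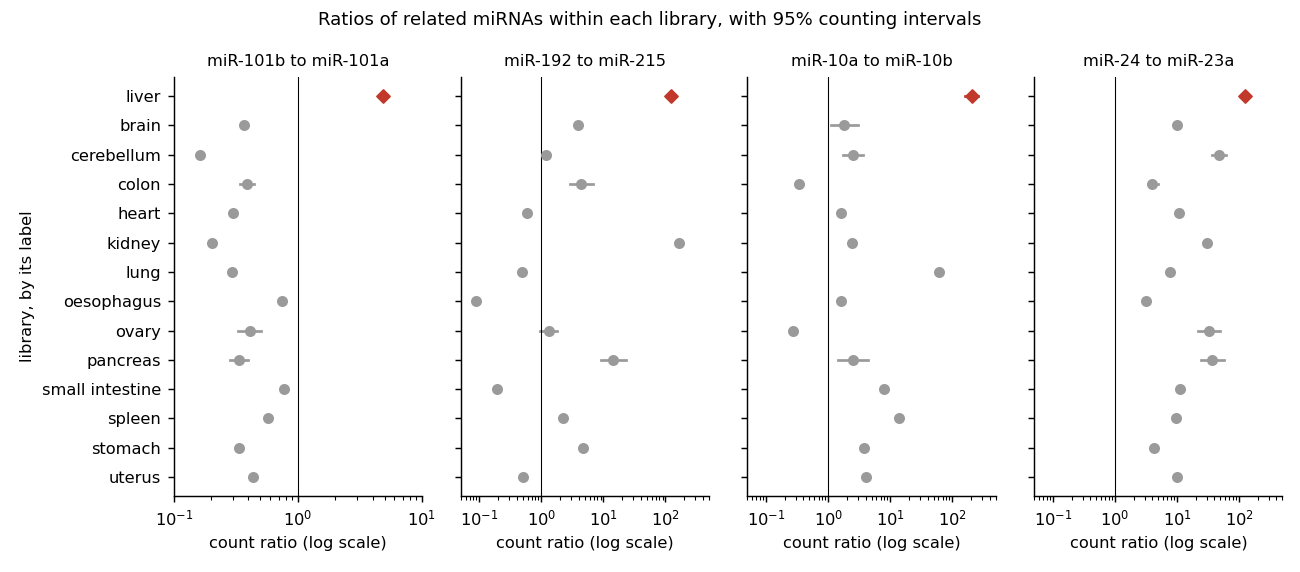
Count ratios of related miRNAs within each library on a log scale, with 95% counting intervals; liver is the red diamond and the other 13 libraries, by their labels, are grey. Liver lies to the right of every other library for miR-101b to miR-101a, miR-10a to miR-10b and miR-24 to miR-23a, and is second to kidney for miR-192 to miR-215.

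Markers of the other cells of the liver gave mixed levels. For endothelium, miR-126-3p had 8336 RPM (8263 to 8409.6) against a median of 5864 RPM and a maximum of 71736 RPM in lung, and miR-126-5p lay 1.26-fold below its median (above it under 4 of the 6 scalings), so both were inside the range of other tissues. For red cells, miR-451 had 171 RPM (1.90-fold above its median), miR-144 20.7 RPM and miR-486 39.3 RPM, and the 3 summed to 231 RPM against 17.1 to 2433 RPM elsewhere. For leukocytes, 1 of 7 names (miR-146a, 1258 RPM) lay above its median, where 18 of the 110 names considered did. Without miR-122 in the total 2 of 7 did, against 42 of 112. Of the 7, 4 were among the names considered, and 2 of them, miR-142-5p and miR-342-3p, were called lower, against 32.7% of all names considered. Over the 6 scalings, miR-223 lay above its median under 4 and miR-142-3p under 3. miR-142-3p had 176 RPM and miR-142-5p 19.3 RPM, and miR-150, the miRNA of mature lymphocytes, had 5 reads (0.840 RPM), 49.5-fold below the median of 41.5 RPM (19.7 to 159.7). The 7 summed to 1478 RPM, against 172 to 45336 RPM.

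Mesenchymal markers and the miR-200 family were low. All 7 names listed for stellate and other mesenchymal cells lay below their medians, as did 92 of the 110 names considered. Of the 7, 4 were among the names considered and all 4 were called lower, against 32.7% of all names considered. The list's median was −3.24 (−2.58 without miR-122 in the total). miR-145, which is made with miR-143, had 8.56 RPM (6.38 to 11.3) in liver from 51 reads and ran from 10.0 RPM in pancreas to 4709 RPM in stomach, with a median of 316 RPM, so liver was 36.9-fold below the median (95% interval 27.9 to 49.7). miR-199a-3p had 57.8 RPM, 9.59-fold below its median, and miR-214, from the same transcript, 3.02 RPM. The miR-200 family maintains epithelial identity and in liver belongs to bile ducts. Of its 5 names 4 were considered, and all 4 were called lower (3 without miR-122 in the total, against 19.6% of all names). None stood above its median on this scale, although miR-429 did under 3 of the 6 scalings. The list median was −3.01 (−2.13 without miR-122). miR-200c had 31.1 RPM (26.8 to 35.9) and ran from 21.2 RPM in cerebellum to 16273 RPM in small intestine, with a median of 774 RPM, 24.9-fold below the median (95% interval 18.6 to 33.1). miR-141, its neighbour, had 7.89 RPM, 35.1-fold below its median. For miR-141, miR-200a, miR-200b and miR-200c the median library is the thinly read one labelled colon.

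**Figure D4:**
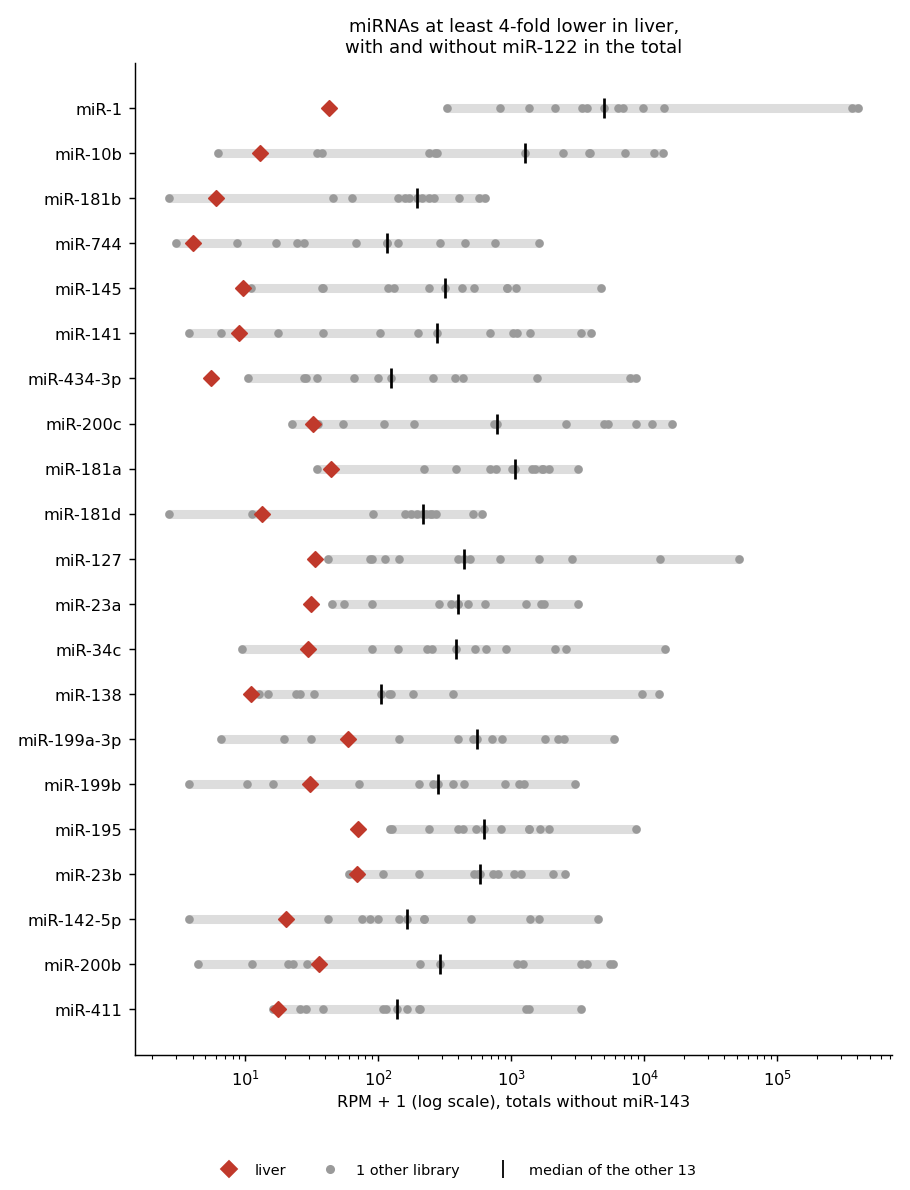
RPM + 1 on a log scale for 21 of the 22 names at least 4-fold lower in liver whether or not miR-122 is in the total (miR-143, which is not part of the totals, is left out); symbols as in the plot of names high in liver. The liver diamond lies left of every median tick, and left of all other libraries for miR-1, miR-145, miR-434-3p, miR-127, miR-23a, miR-138 and miR-195, for miR-145, miR-23a and miR-138 by less than the counting error.

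The list of imprinted miRNAs holds 12 names, many of them from the Dlk1-Dio3 region that is active in fetal tissue and brain. They summed to 224 RPM in liver, against 169 RPM (kidney) to 71172 RPM (cerebellum) elsewhere. miR-379 had the most, 102 RPM from 607 reads. None of the 12 listed stood above its median and 9 lay below, where 92 of the 110 names considered did. Of the 12, 4 were among the names considered and all 4 were called lower, against 32.7% of all names considered. Without miR-122 in the total 2 were called lower, against 19.6% of all names. The list median was −1.87, against −1.23 for all names considered, and −1.26 without miR-122. miR-127 had 32.6 RPM (28.2 to 37.5) in liver, 13.5-fold below its median of 439 RPM, against 51796 RPM in cerebellum. miR-434-3p had 4.53 RPM (2.99 to 6.60), below all 13 libraries and 27.2-fold below its median. miR-675-3p, miR-675-5p and miR-483*, from the H19 and Igf2 locus that is active in fetal liver, had no liver read, and the median of the other libraries was 0 as well. miR-495 also had none.

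Markers of pancreatic acinar cells had few liver reads. miR-216a and miR-217, of the pancreatic acinar cell, had 3 and 12 liver reads (0.504 and 2.02 RPM), against 609.6 and 3091 RPM in pancreas. The islet and endocrine miRNA miR-375 had 3 reads, but miR-7a, listed with it, had 161.5 RPM against a median of 223 RPM, which it exceeded under 5 of the 6 scalings. The neural miR-124 had 10.2 RPM and miR-9 62.8 RPM, both inside the range of the other libraries. Altogether 10 names had no liver read and at least 100 RPM elsewhere: besides miR-133a, miR-133b, miR-205 and miR-495 these were miR-133a*, miR-204*, miR-369-5p, miR-384-5p, miR-431* and miR-92b, with maxima between 117 (miR-204*, cerebellum) and 150 RPM (miR-431*, cerebellum).

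**Figure D5:**
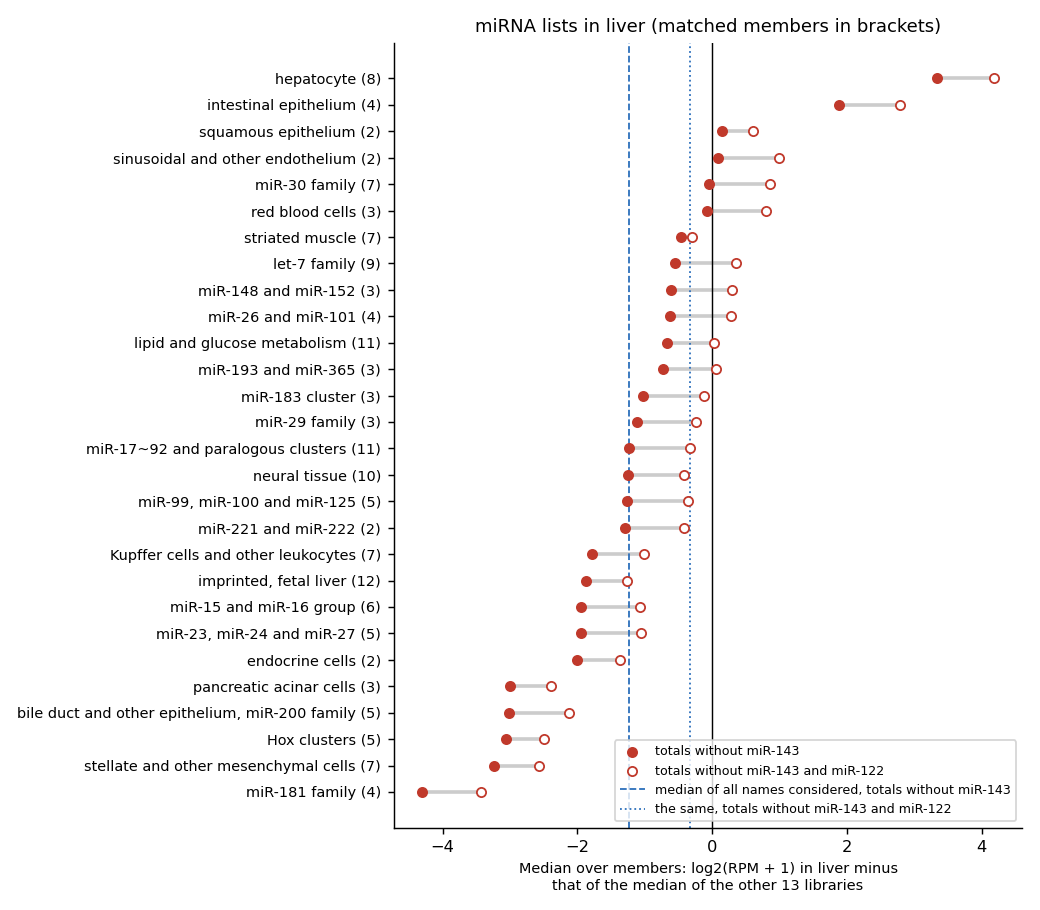
Median over the matched members of each of the 28 lists of the log2 difference between liver and the median of the other 13 libraries (RPM + 1), with totals without miR-143 (filled) and without miR-143 and miR-122 (open); the vertical blue lines mark the same median over all names considered on each scale. The hepatocyte list lies farthest right at 3.34 and 4.18, and the miR-181 family farthest left at −4.30 and −3.43. The lists were chosen with earlier results of these data known, so these places are a description only.

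Several lists lay near the whole profile on totals without miR-143. The medians of the miR-17~92 and paralogous clusters (−1.24), the neural list (−1.25) and the miR-99, miR-100 and miR-125 group (−1.26) lay at the median of all names considered (−1.23). The miR-29 family (−1.12) and the miR-148 and miR-152 group (−0.61) lay somewhat above it, and the miR-15 and miR-16 group (−1.95) below. Within the miR-148 and miR-152 group the members differed: miR-148a was 2.96-fold above its median in liver, miR-148b 1.52-fold and miR-152 2.93-fold below theirs, although miR-148b was above its median under 4 of the 6 scalings and miR-152 under 2. Relative to the median of all names considered, the hepatocyte, intestinal, endothelial, red cell and squamous lists stood higher under all 6 scalings. So did the miR-30, let-7, miR-26 and miR-101, miR-148 and miR-152, and miR-193 and miR-365 lists. The leukocyte, mesenchymal, miR-200, acinar, endocrine and neural lists stood lower under all 6. So did the miR-23, miR-24 and miR-27, miR-15 and miR-16, miR-99, miR-100 and miR-125, miR-181, Hox and imprinted lists. List medians also include members too low to be considered, so the 2 sides are not alike. On totals without miR-143 no acinar, miR-193 or miR-365 name was considered, and only 1 of 3 red cell and 1 of 2 squamous names. The squamous median joins miR-203 with miR-205, which had no liver read. The sign of a list's own difference was less stable: those of the let-7 and miR-30 families, for example, were above 0 under 4 and 5 of the 6.

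By rank of abundance, liver was most like kidney. Spearman's rho across the 241 names at 10 RPM or more in either library was 0.804 with kidney, 0.774 with lung (275 names) and 0.746 with spleen. It was lowest with cerebellum (0.388) and brain (0.505), and among the thinly read libraries it was 0.533 in ovary, 0.524 in pancreas and 0.668 in the one labelled colon. These values describe 1 library each, over names that share the library's total. With names at 100 RPM or more, lung came first at 0.736, ahead of kidney at 0.686.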

How the data were processed

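Small RNA of 14 mouse tissues was sequenced, with 1 library per tissue; per the labels' protocols, total RNA was extracted with Trizol, pooled over animals and made into libraries by the standard Illumina procedure. The deposited values are whole-number read counts per miRNA name, with no scaling by the authors that the values show. The sources used here do not give trimming, aligner, miRNA release, genome build or how reads that match several names were counted. The name of each of the 14 value columns gave its tissue.

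Each count was divided by its library total without miR-143 and multiplied by 1e+06 to give RPM. Intervals at 95% are exact Poisson for levels, exact conditional binomial for ratios and folds, and a count of 0 allows 3 reads. They cover counting error only, since no molecular identifiers are given. At the thinnest total, 86545 reads without miR-143, that limit is 34.7 RPM. Folds in the text are ratios of RPM, and calls and log2 differences add 1 RPM to both sides. Without replicates no test was run, and names were called by rules of size. The rules were also run on simulated counts with planted changes larger than the 4-fold rule and with known depth. That run checks only how the rules are coded and does not bear on the differences between scalings.

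The miRNAs, the 28 lists (156 members, 3 without a matching name) and the rules were chosen with earlier results of these data known. Named were list members, the 20 most abundant liver names, names called by a rule or within 4 places of a fold threshold, the arms that differ most, and related pairs. Alternatives were other totals, median-of-ratios and TMM factors, other minimum levels, folds and pseudocounts, identical or star names left out, and libraries left out. The run without the libraries labelled colon and uterus was added after the data were seen. Mature sequences were found in RefSeq on GRCm38.p6 for 91 of the 110 names considered, and host genes come from GENCODE M21. Python 3.11.15, pandas 2.3.3, SciPy 1.17.1, R 4.3.3 and edgeR 4.0.16 (for TMM factors only) were used.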

Additional observations from a re-analysis of the deposited data

How the results depend on the processing

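The number of names called higher in liver was 6, and 11 with miR-143 in the totals, 10 without miR-122, 18 with median-of-ratios factors, 18 with TMM factors and 12 at a minimum of 10 RPM. The number called lower was 36, and in the same order 13, 22, 14, 8 and 84, then 4 at a minimum of 1000 RPM and 69 at 2-fold. Names highest in liver were 2, and 4 with miR-143 in the totals, 9 with median-of-ratios and 10 with TMM factors; names at least 2-fold above all others were 2, and 1 at 5-fold. Names lowest in liver were 8, and 2, 2, 4 and 1 under the first 4 scalings above, 14 without the 5 most abundant names, 2 at 1000 RPM and 30 without the libraries labelled colon, ovary and pancreas. Leaving out 1 library at a time gave 5 to 6 higher, 31 to 42 lower, 2 highest and 7 to 20 lowest names, the 20 without pancreas.

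The hepatocyte list median of 3.34 was 3.61 with miR-143 in the totals, 4.18 without miR-122, 4.50 with median-of-ratios, 4.29 with TMM, 4.23 without the 5 most abundant names, 1.87 with a pseudocount of 10 RPM, 3.49 without star names and 2.95 without colon, ovary and pancreas, and 3.26 to 3.34 with 1 library left out. Against the maximum of the other tissues, the log2 difference of miR-192 turned from −0.46 to 0.55 with miR-143 in the totals, 0.44 without miR-122, 0.93 with median-of-ratios and 1.20 with TMM factors, and miR-30b turned to 0.053 against the median with TMM factors. The ratio of miR-122 to the next name, 3.11, was 6.52 against the third name, and the nearest library, kidney at 0.804, was lung at 0.736 from 100 RPM. Of 1029 alternative values for 49 named results, 585 moved by less than their counting interval, 439 moved further in the same direction of difference and 5 turned direction; the cause was not tested. No paired analysis was possible because each tissue has 1 library, and no replicate could be left out. Levels in ovary, pancreas and the library labelled colon are limited by their depth.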

Other observations

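Few names at low levels were highest in liver. Apart from miR-122*, miR-1948 had 44 liver reads (7.39 RPM) and 7 reads in all other libraries together, 17.1-fold above lung (2.91 to 689), where 1 read was counted. Its opposite arm, miR-1948*, had 21 liver reads (3.53 RPM) and 6 elsewhere, 7.64-fold above kidney (2.28 to 40.0). These 3 were the only names under 100 RPM, with 10 or more liver reads, that were highest in liver, on totals with and without miR-122. Another 4 names had reads in liver alone: miR-3073-3p with 3 and miR-465b-3p, miR-465c-3p and miR-880 with 1 each.

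The balance of the miR-142 arms in liver lay outside that of other tissues. It was not the only such pair. Liver also lay above all 13 libraries for let-7i, miR-22, miR-101b, miR-93, miR-215, miR-146a, miR-1839-5p and miR-101a, and above all 11 compared for miR-122. Many of these rest on few liver reads of the second arm. There were 0 for miR-101b, miR-93 and miR-146a, 1 for miR-215, 4 for let-7i, 5 for miR-1839-5p and 10 for miR-101a. For miR-22 the log2 ratio was 6.30 against at most 6.26. The ratio taken was that of the unstarred or 5p arm to the star or 3p arm. Of the 52 pairs compared, 38 had a liver ratio above the median of the other libraries and 14 below. miR-142 is the miRNA of blood cells, and its 3p arm made up 90.1% of the reads of both arms in liver (1048 of miR-142-3p and 115 of miR-142-5p), against 7.25% to 83.1% in the 12 other libraries with enough reads (median 59.6%). The ratio of miR-20a to miR-17, from one transcript, was 1.94 in liver (1.72 to 2.18), above all 10 libraries compared, the highest of which, oesophagus at 1.77, lies inside that interval.

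miR-199a-3p and miR-199b have the same mature sequence, and RefSeq lists 2 loci for the first and 1 for the second. Their counts stood at 344 to 175 in liver, a ratio of 1.97, and at 1.96 to 2.02 over the 14 libraries. Whether reads of other shared sequences were divided over names in the same way was not tested.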
